A study of Mus musculus with 6 samples.

Results

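Lipid droplets are the organelles in which hepatocytes keep triglyceride, and 10 genes of their protein coat and of the lipase step at their surface are described here in mouse liver: *Plin2*, *Plin3*, *Plin4*, *Plin5*, *Cidec*, *Cideb*, *Hsd17b13*, *Pnpla2*, *Abhd5* and *G0s2*. They were chosen by name. The deposited table holds 11 rows with these names among its 12792 rows, because *Cidec* stands in 2 rows, and all 11 were tested. The libraries are polyadenylated RNA of liver from mice bearing tumours of the hepatoma line Hepa 1-6, which is of mouse origin. The labels give 3 libraries as wild type (WT) and 3 as AKR1D1KO (KO), which are named here by group and replicate. Every mouse of both groups carried the tumour model, so there is no tumour-free liver to compare with. The labels give no age, sex, strain or diet, do not say how the allele was made, and do not say whether each library is a different animal. P-values thus measure the spread between these libraries, which may be technical.

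The droplet surface is a single phospholipid layer covered by proteins. Perilipins coat it and limit the access of lipases, CIDE proteins make droplets fuse and grow and help to load lipid onto lipoproteins, and HSD17B13 is a liver enzyme that sits on droplets. The first step of triglyceride breakdown is made by the lipase PNPLA2, also called ATGL. ABHD5, also called CGI-58, activates this lipase and G0S2 inhibits it. In liver several of these genes, *Plin2*, *Plin5*, *Cidec* and *G0s2* among them, are known targets of PPAR receptors, which bind fatty acids. Among these receptors PPARA is active in fasting. RNA levels are given below; droplets, lipid and protein were not measured in these files. In bulk liver RNA, fewer cells of a type and less RNA per cell cannot be told apart.

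Each deposited value is a linear ratio that reads as the expression of a gene in 1 library over the mean of that gene in 7 libraries, 1 of which is not analysed here. A value of 1 is therefore the usual level of that gene, and levels of different genes cannot be compared. The number of reads behind a value is unknown. The median over the tested rows was 0.993 to 1.00 in the WT libraries and 0.987 to 0.998 in the KO libraries. *Akr1d1*, the steroid 5-beta-reductase targeted in this study, was at 0.826, 0.697 and 0.881 in WT replicates 1 to 3 and at 1.22, 1.21 and 1.35 in KO replicates 1 to 3. The libraries labelled KO thus did not have less RNA of the targeted gene (log2 change 0.60, limma adjusted p = 0.17), which goes against the labels; a value over the whole gene does not show whether the transcript is intact. All directions are therefore between libraries as labelled. Of 12578 rows tested, 2 passed the threshold, a limma adjusted p under 0.05, which is 0.0159% of the rows.

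The promoters of *Cidec* and *Plin2* are shown because *Cidec* has the largest difference among these genes, in a row whose place in the gene is not given, and because *Plin2* is the main perilipin of hepatocytes. RefSeq (build GRCm38.p6) gives *Cidec* a pair of starts on chromosome 6 and *Plin2* a start on chromosome 4, all on the minus strand. Each window runs 5′ to 3′ along the gene, from 250 bases before the start to 50 bases after it, at chr6:113435711-113436010, chr6:113434715-113435014 and chr4:86670010-86670309. Capitals mark matches to the motifs named below.
Cidec, outer start: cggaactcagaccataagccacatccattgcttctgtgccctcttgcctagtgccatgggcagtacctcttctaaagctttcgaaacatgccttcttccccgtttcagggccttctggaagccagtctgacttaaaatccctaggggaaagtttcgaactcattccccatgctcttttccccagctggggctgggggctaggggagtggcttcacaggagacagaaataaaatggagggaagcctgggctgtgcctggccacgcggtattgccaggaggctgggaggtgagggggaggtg
Cidec, inner start: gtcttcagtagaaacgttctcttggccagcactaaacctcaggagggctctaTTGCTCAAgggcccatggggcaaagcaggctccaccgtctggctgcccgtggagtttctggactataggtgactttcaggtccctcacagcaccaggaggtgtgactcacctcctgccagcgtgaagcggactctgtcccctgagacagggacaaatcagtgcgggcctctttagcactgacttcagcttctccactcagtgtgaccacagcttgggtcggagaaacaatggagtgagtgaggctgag
Plin2: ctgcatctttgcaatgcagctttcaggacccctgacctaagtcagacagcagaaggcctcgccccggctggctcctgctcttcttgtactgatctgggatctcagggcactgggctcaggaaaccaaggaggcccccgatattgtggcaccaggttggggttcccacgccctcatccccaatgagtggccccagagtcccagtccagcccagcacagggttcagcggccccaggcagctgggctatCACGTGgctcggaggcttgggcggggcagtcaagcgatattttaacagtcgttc

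All 10 genes had a promoter window, 12 windows in all, and 6 motifs were searched on both strands. The window of the inner *Cidec* start holds a C/EBP-type match (TTGCNNAA) that begins 198 bases before the start; 10.8% of all 32851 promoter windows hold this motif. The *Plin2* window holds an E-box (CACGTG) that begins 4 bases before the start, a motif found in 7.15% of windows. A PPAR-type direct repeat (AGGNCANAGGNCA), found in 0.381% of all windows, had no match in the 12 windows. The cAMP response element (TGACGTCA), a sterol element (TCACNCCAC) and the glucocorticoid element (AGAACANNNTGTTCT) had none either, and stood in 1.79%, 1.24% and 0.00913% of all windows. These motifs do not overlap one another in the windows shown. A match is a match of letters and was not tested as a binding site.

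Across the 11 rows 0 passed the threshold in either direction by limma, with or without a mean trend, and 1 had an unadjusted limma p under 0.05, against 12% of all rows. The medians of the log2 change were -0.0052 for the 11 rows and -0.0043 for all rows tested. Of the 11 rows, 5 had a positive and 6 a negative change, where 49% of all rows were positive. The groups did not overlap in 4 rows, against 19% of all rows. The KO libraries were all above the WT libraries in 1 of them, the second *Cidec* row, against 8.86% of all rows. They were all below the WT libraries in the other 3, *Plin3*, *Hsd17b13* and *Abhd5*, against 10.1% of all rows. The genes differed much in how widely they ranged over the 6 libraries: the highest value was 1.13 times the lowest for *Abhd5* and 1.19 times for *Cideb*, but 2.21 times for *G0s2*, 2.59 times for *Plin4* and 6.18 times for the second *Cidec* row.

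**Figure D1:**
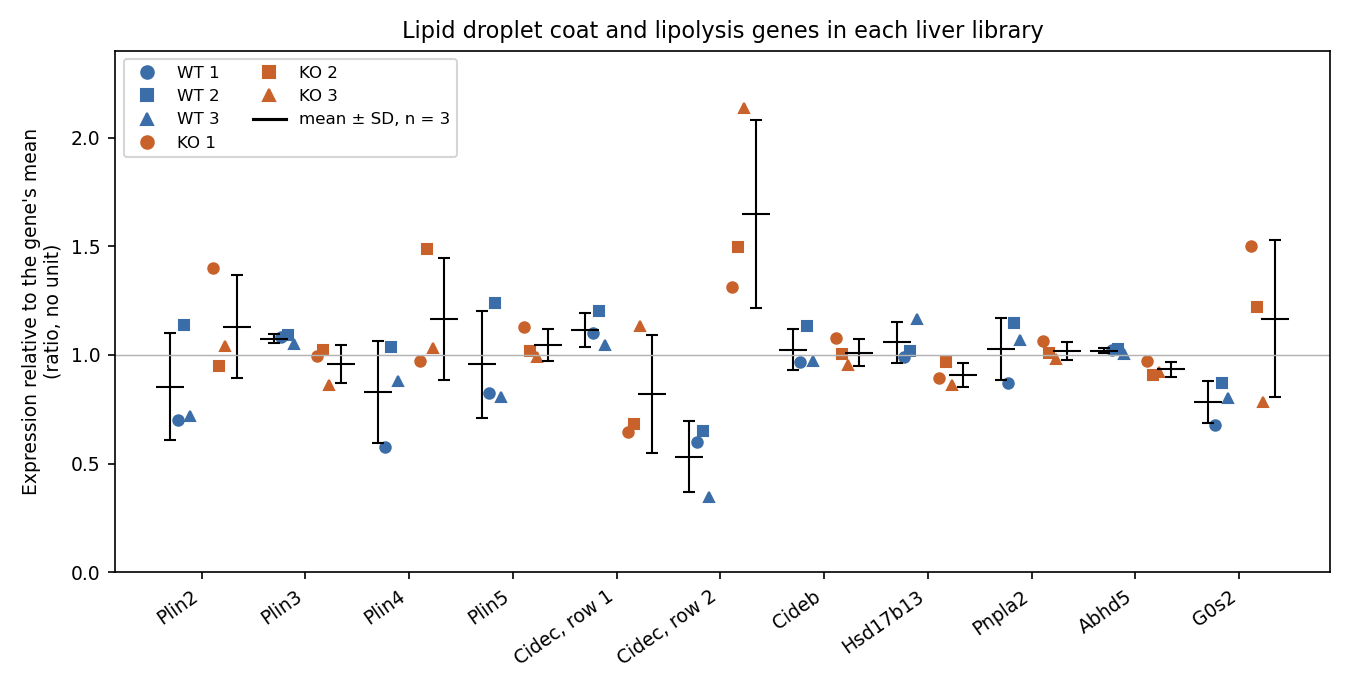
Expression of the 10 genes (11 rows) in each library, relative to the mean of the gene (ratio, linear axis from 0). Blue points are WT and orange points KO libraries, the marker gives the replicate, and bars give the mean ± SD (n = 3). The second Cidec row is the widest, from 0.346 to 2.14, and Abhd5 the narrowest, from 0.907 to 1.03.

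Among the coat proteins, *Plin2*, which covers most droplets in hepatocytes and whose protein is stable when bound to lipid, did not separate the groups. *Plin2* was at 0.703, 1.14 and 0.720 in WT replicates 1 to 3 and at 1.40, 0.950 and 1.04 in KO replicates 1 to 3. WT replicate 2 lay within the KO range, and the other WT libraries lay below it. The mean values were 0.854 ± 0.247 and 1.13 ± 0.238 (SD, n = 3 each), so that the KO mean was 1.32-fold higher. The log2 change, on the log2(value + 0.1) scale used throughout, was 0.38 (SE 0.22, 95% interval -0.17 to 0.93, limma adjusted p = 0.555). *Plin2* lies on chromosome 4, 86648386 to 86670060, minus strand (mm10).

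*Plin5*, the perilipin of oxidative tissues, which ties droplets to mitochondria, was at 0.825, 1.24 and 0.805 in WT and at 1.13, 1.02 and 0.990 in KO libraries. The KO libraries lay close together, between the WT libraries, with WT replicate 2 the highest of all. Its log2 change was 0.14 (SE 0.17, 95% interval -0.28 to 0.56, limma adjusted p = 0.788). *Plin4*, a long perilipin best known from adipocytes and muscle, was at 0.574, 1.04 and 0.881 in WT and at 0.973, 1.49 and 1.03 in KO libraries. KO replicate 2 was the highest and WT replicate 1 the lowest, and the groups overlapped. The mean was 1.40-fold higher in KO libraries (log2 change 0.45, SE 0.24, 95% interval -0.15 to 1.06, limma adjusted p = 0.526). *Plin4* and *Plin5* are neighbours on chromosome 17 with 1797 bases between them (56100591 to 56109803 and 56111601 to 56117596, both on the minus strand). The end of *Plin4* meets *Hdgfl2* of the opposite strand, and the sources used here do not say whether strand was used in counting.

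*Plin3*, a perilipin that cells of most tissues make and that moves onto young droplets, ran the other way from *Plin2*, *Plin4* and *Plin5*. Its values were 1.08, 1.09 and 1.05 in WT and 0.994, 1.02 and 0.861 in KO libraries. The groups did not overlap, by a gap of 0.0294 between the nearest libraries, and KO replicate 3 was the lowest. Mean values were 1.08 ± 0.0212 and 0.959 ± 0.0863 (SD, n = 3 each), a ratio of 0.892. The difference did not pass (log2 change -0.15, SE 0.09, 95% interval -0.37 to 0.07, limma adjusted p = 0.55). *Plin3* lies on chromosome 17, 56277476 to 56292873, minus strand.

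The gene named *Cidec* gave the largest difference of the 10 genes and also the least certain one. CIDEC, also called FSP27, lets droplets fuse and is made in adipocytes and in fatty liver. The second *Cidec* row was at 0.600, 0.648 and 0.346 in WT and at 1.31, 1.50 and 2.14 in KO libraries. The lowest KO library lay 0.665 above the highest WT library, and KO replicate 3 was the highest of all. Its group means were 0.531 ± 0.163 and 1.65 ± 0.431 (SD, n = 3 each), and the KO mean was 3.10-fold higher. Its log2 change of 1.48 (SE 0.26, 95% interval 0.83 to 2.12) had an unadjusted p of 0.00144, place 106 of 12578 rows, and a limma adjusted p of 0.17, so it did not pass. The exact permutation p was 0.1 (two-sided), which is the lowest value that groups of 3 can reach.

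The first *Cidec* row did not follow the second. Its values were 1.10, 1.20 and 1.04 in WT and 0.644, 0.682 and 1.13 in KO libraries. KO replicates 1 and 2 were the lowest, while KO replicate 3 lay among the WT libraries. The ratio of means was 0.734 (log2 change -0.44, SE 0.21, 95% interval -0.95 to 0.07, limma adjusted p = 0.474). *Cidec* is annotated once, on the minus strand of chromosome 6, 113424634 to 113435760. Of the singly named rows within 50 rows of the first *Cidec* row, 95 of 95 were genes of the plus strand of chromosome 6, and of those around the second row 97 of 97 were genes of the minus strand. The second row thus stands among genes of the strand on which *Cidec* is annotated, and the first among genes of the opposite strand. The table does not itself say what separates the rows or which reads each row counts. Neither is therefore taken here as the level of the gene.

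*Cideb*, the CIDE protein of hepatocytes that helps to fill very-low-density lipoproteins, was at 0.969, 1.13 and 0.973 in WT and at 1.08, 1.00 and 0.952 in KO libraries. The groups overlapped almost fully, with a log2 change of -0.02 (SE 0.10, 95% interval -0.25 to 0.22, limma adjusted p = 0.959) that turned positive without WT replicate 2 (0.05) or KO replicate 3 (0.02). *Cideb* lies on chromosome 14, 55754050 to 55758458, minus strand, and overlaps *Nop9* of the plus strand at 1 end.

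*Hsd17b13*, a droplet-bound enzyme made mainly in hepatocytes, was at 0.991, 1.02 and 1.17 in WT and at 0.894, 0.968 and 0.860 in KO libraries. Each KO library lay below each WT library, with a gap of 0.0232 between the nearest. Group means were 1.06 ± 0.0948 and 0.907 ± 0.0554 (SD, n = 3 each), a ratio of 0.857. The difference did not pass (log2 change -0.20, SE 0.09, 95% interval -0.43 to 0.03, limma adjusted p = 0.477). It was the only 1 of the 11 rows in which WT replicate 3, and not WT replicate 2, was the highest WT library. *Hsd17b13* lies on chromosome 5, 103955440 to 103977410, minus strand.

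**Figure D2:**
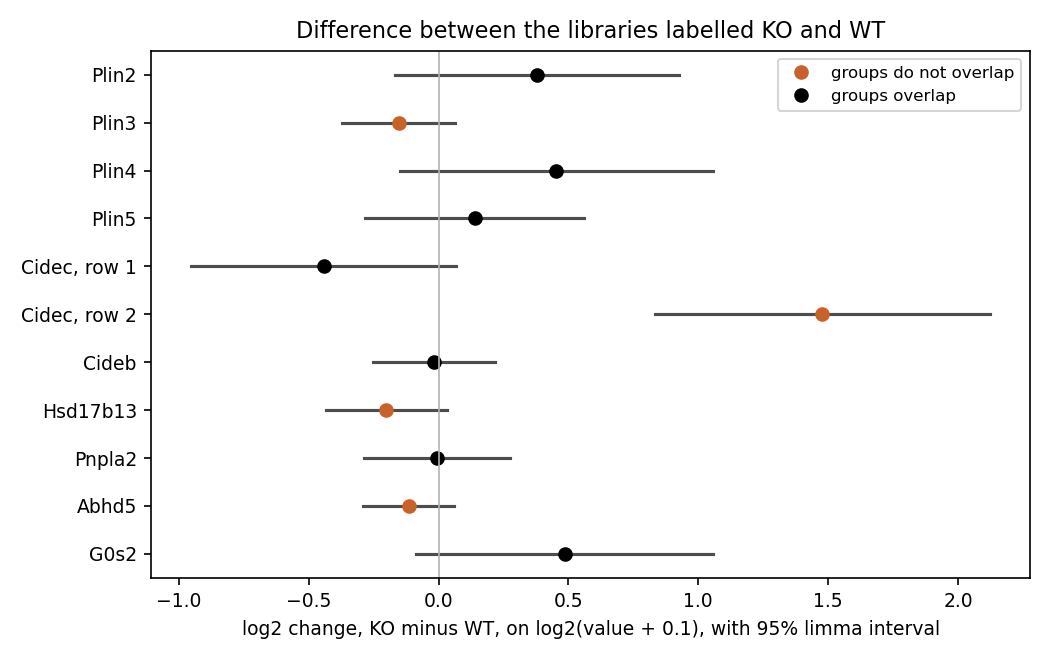
Log2 change of each row, KO minus WT, on log2(value + 0.1), with the 95% interval of the limma fit; orange marks rows whose groups do not overlap. The interval of the second Cidec row (0.83 to 2.12) lies above 0 before adjustment over all rows, and those of the other 10 rows include 0.

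At the lipase step, *Pnpla2* itself was nearly level. *Pnpla2* was at 0.871, 1.15 and 1.07 in WT and at 1.06, 1.01 and 0.984 in KO libraries. The KO libraries lay inside the WT range. Means of 1.03 ± 0.142 and 1.02 ± 0.0403 (SD, n = 3 each) gave a log2 change of -0.0052 (SE 0.11, limma adjusted p = 0.993), and the 95% interval of -0.29 to 0.28 bounds the size of change. Its sign turned under several settings, given with the processing. *Pnpla2* lies on chromosome 7, 141455198 to 141460743, plus strand.

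*Abhd5*, the activator of that lipase, was at 1.02, 1.03 and 1.01 in WT and at 0.974, 0.907 and 0.922 in KO libraries. The groups did not overlap, by a gap of 0.0323, and the WT libraries were the tightest of any of these rows (SD 0.0113, n = 3). The ratio of means was 0.917, and the difference did not pass (log2 change -0.11, SE 0.07, 95% interval -0.29 to 0.06, limma adjusted p = 0.583). *Abhd5* lies on chromosome 9, 122351608 to 122381524, plus strand, and overlaps the opposite-strand gene *A730085K08Rik* at 1 end.

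*G0s2*, the inhibitor of the same lipase, was at 0.677, 0.870 and 0.800 in WT and at 1.50, 1.22 and 0.782 in KO libraries. KO replicates 1 and 2 lay above all WT libraries, while KO replicate 3 lay between WT replicates 1 and 3. Mean levels were 0.783 ± 0.0976 and 1.17 ± 0.362 (SD, n = 3 each), and the KO mean was 1.49-fold higher, which did not pass (log2 change 0.49, SE 0.23, 95% interval -0.09 to 1.06, limma adjusted p = 0.484). The log2 change was 0.30 without KO replicate 1 and 0.73 without KO replicate 3. *G0s2* is a short gene on chromosome 1, 193272161 to 193273217, minus strand, inside the span of *Lamb3* on the plus strand.

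The libraries within a group differed in these genes in a shared way, a pattern chosen after its values were seen. WT replicate 2 was the highest WT library in 10 of the 11 rows, where it was the highest in 37.2% of the 12410 rows above 0 in all libraries. It led WT replicate 1 by little in some rows, as in *Abhd5* (1.03 against 1.02) and *Plin3* (1.09 against 1.08). WT replicate 1 was the highest in 0 and the lowest in 6 of the 11 rows. As the median of the 11 rows, each centred on its own mean log2 value, WT replicates 1 to 3 stood at -0.21, 0.10 and -0.06 and KO replicates 1 to 3 at 0.05, -0.01 and -0.05. The KO libraries thus lay inside the range of the WT libraries. The high place of WT replicate 2 was not particular to these genes. It also had the highest centred WT median in other lists described below. These were droplet surface genes (0.11), other neutral lipid hydrolysis (0.04), triglyceride synthesis (0.08) and PPAR genes (-0.02). In the macrophage and stellate cell lists it had the lowest (-0.29 and -0.17). Without WT replicate 2 the log2 change was 0.58 for *Plin2*, 0.61 for *Plin4* and 0.32 for *Plin5*, with limma adjusted p of at least 0.386 for each under every setting tried.

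Patterns were compared between genes by the root mean square difference of their 6 centred log2 values. Among 11642 singly named genes, *Cyp4a10* was the nearest to *Plin2* (0.0645), followed by *Armc9* (0.0739) and *Fam84a* (0.0907). *Cyp4a10*, a fatty acid hydroxylase and a textbook target of PPARA, was at 0.676, 1.06 and 0.633 in WT and at 1.33, 0.990 and 0.991 in KO libraries. It shares with *Plin2* the high WT replicate 2 and the high KO replicate 1. Among the members themselves the nearest pair was *Plin3* with *Abhd5* (0.0742), both of which had KO libraries below WT libraries, and the next *Cideb* with *Pnpla2* (0.0774). The distance is not scaled to the range of a gene, so genes that vary little lie near one another whatever their pattern. Both of these pairs are of narrow genes, with highest over lowest values of 1.27, 1.13, 1.19 and 1.32 for *Plin3*, *Abhd5*, *Cideb* and *Pnpla2*. The distances describe these 6 libraries and were not tested.

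**Figure D3:**
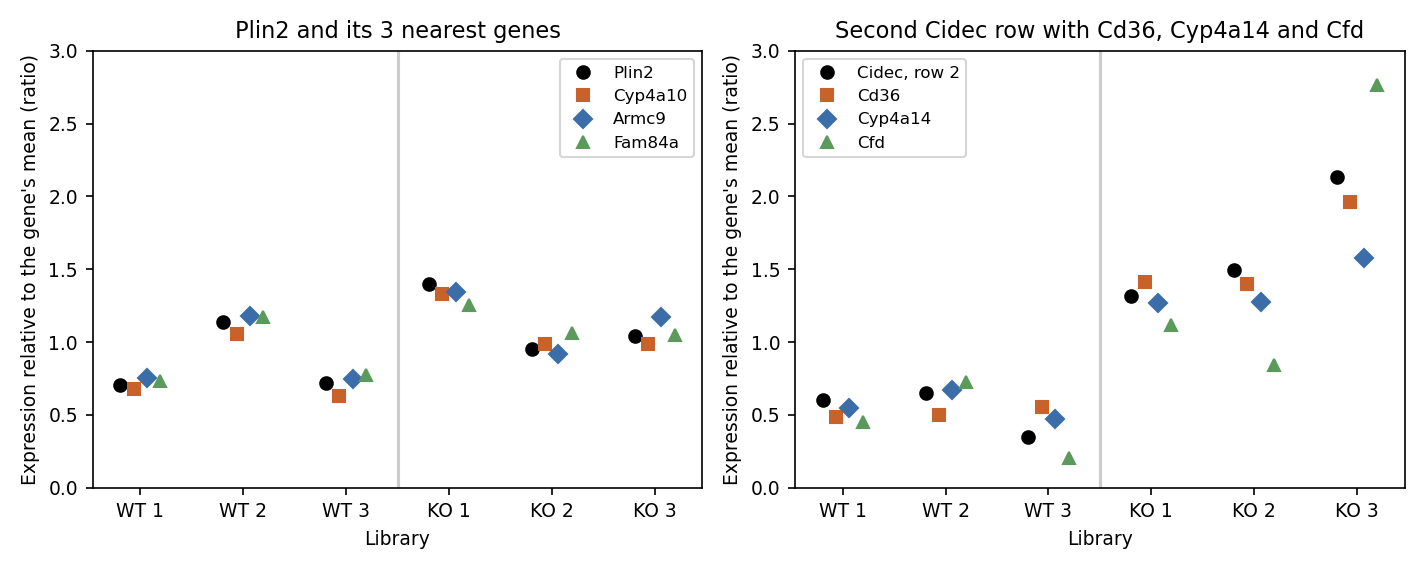
Expression relative to the mean of the gene (ratio) in each library, for Plin2 with its 3 nearest genes (left) and for the second Cidec row with Cd36, Cyp4a14 and Cfd (right); a marker is 1 gene in 1 library. On the left WT replicate 2 and KO replicate 1 stand highest in their groups, and on the right all KO libraries lie above all WT libraries.

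Other genes of droplets and of lipid storage were read from lists, of which 0 members passed the threshold in the lists of droplet surface and biogenesis, other neutral lipid hydrolysis, triglyceride synthesis and PPAR genes. Of 18 further droplet surface and biogenesis genes, 9 had a positive and 9 a negative change, with a median log2 change of -0.0015. At an unadjusted limma p under 0.05, 2 had higher and 0 lower values, against 12% of all rows in either direction. *Fitm1*, whose protein helps droplets to form at the endoplasmic reticulum and is best known from muscle, had a 1.88-fold higher mean (limma adjusted p = 0.245). *Nsdhl*, a sterol synthesis enzyme found on droplets, had a 1.37-fold higher mean and *Mettl7a1* a ratio of 0.879. WT replicate 2 was the highest WT library for *Fitm1* (1.05 against 0.608 and 0.585) and *Mettl7a1* (1.13 against 0.994 and 1.12). For *Nsdhl* it was the lowest (0.822 against 0.948 and 0.906). *Plin1* and *Cidea*, the coat proteins typical of adipocytes, have no row of that name in the deposited table.

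Of 17 other genes of neutral lipid hydrolysis, 9 were positive and 8 negative (median log2 change 0.0058). At an unadjusted limma p under 0.05 there were 2 higher and 4 lower, against 12% of all rows in either direction. The lysosomal acid lipase gene *Lipa* was at 0.893, 0.880 and 0.876 in WT and at 1.06, 1.17 and 1.19 in KO libraries, a 1.29-fold higher mean (limma adjusted p = 0.229). *Ces1c* and *Ces1d*, of a family of close-lying carboxylesterases between which reads may be split, had ratios of 0.778 and 0.746. Of the same family *Ces1f* was at 0.819, *Ces1e* at 1.02 and *Ces1g*, whose KO libraries were all above the WT libraries, at 1.22. *Lipe*, hormone-sensitive lipase, had a ratio of 0.912 with overlapping groups, and the 2 rows named *Mgll*, monoacylglycerol lipase, had ratios of 1.22 and 1.23, overlapping too. *Pnpla3*, a relative of *Pnpla2* that sits on droplets and is induced by feeding, was at 2.94, 0.248 and 0.483 in WT and at 0.813, 0.994 and 1.22 in KO libraries. WT replicate 1 was thus the highest of all for *Pnpla3* and WT replicate 2 the lowest, the reverse of their order for *Plin2*, *Plin4* and *Plin5*.

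Triglyceride synthesis genes were split as well, 7 of 13 positive (median log2 change 0.03). At an unadjusted limma p under 0.05 there were 3 higher and 1 lower, against 12% of all rows in either direction. *Dgat2*, of the last step of triglyceride synthesis, was at 1.08, 1.17 and 1.09 in WT and at 0.854, 0.887 and 0.863 in KO libraries, a ratio of 0.780 (limma adjusted p = 0.225). *Agpat9*, of the first step, had a 2.69-fold and *Mogat1*, of the monoacylglycerol route, a 3.70-fold higher mean (limma adjusted p = 0.218 and 0.376), with groups that did not overlap. Of 16 genes in the list of PPAR receptors and fasting targets, 13 were positive (median log2 change 0.28), where 49% of all rows were positive. In 9 the KO libraries were all above the WT libraries, against 8.86% of all rows. At an unadjusted limma p under 0.05, 8 had higher and 0 lower values, against 12% of all rows in either direction. The lists were chosen with earlier results of these data known, so these shares describe the list and do not test it. *Cd36*, a fatty acid transporter, was at 0.484, 0.502 and 0.557 in WT and at 1.41, 1.40 and 1.96 in KO libraries, and *Cyp4a14* had a 2.43-fold higher mean (limma adjusted p = 0.0842 and 0.098). Like the second *Cidec* row, *Cd36* and *Cyp4a14* were highest in KO replicate 3.

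Markers of other cells moved with some of these values. Of 11 adipocyte markers 5 were tested, 4 of them positive, where 49% of all rows were positive. The defining genes *Adipoq*, *Lep* and *Retn* have no row of that name in the deposited table, so they could not be read. The median of the 5, centred, was -0.10 to -0.08 in WT and -0.03 to 0.18 in KO libraries. *Cfd*, which adipocytes make, was at 0.450, 0.726 and 0.202 in WT and at 1.11, 0.845 and 2.77 in KO libraries, highest in KO replicate 3 as was the second *Cidec* row. *Fabp4* was at 1.41 in KO replicate 3 and at 0.642 to 1.04 in the other 5 libraries. The other 3 tested markers were highest in WT libraries, *Lipe* in WT replicate 2 (1.16), *Thrsp* in WT replicate 1 (1.78) and *Adrb3* in WT replicate 3 (1.25). Without KO replicate 3 the log2 change of the second *Cidec* row was 1.29 (limma adjusted p = 0.249). The part of adipose tissue in this row was not tested further.

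Macrophage and Kupffer cell markers, of cells that also make *Plin2*, were positive in 9 of 10, where 49% of all rows were positive. Their centred median ran from -0.29 to 0.0018 in WT and from 0.09 to 0.15 in KO libraries. WT replicate 2, high for *Plin2*, had the lowest median for these markers, and *Adgre1* was at 0.745 in it. *Trem2* went the other way, with its highest value in WT replicate 2 (1.30). Hepatocyte markers were negative in 7 of 8 (median log2 change -0.09). Their ratios ran from 0.824 for *Ttr*, the lowest, to 0.985 for *Hnf4a*, with *Tat* the other way at 1.15. Ratios of droplet genes were 0.892 for *Plin3*, 0.857 for *Hsd17b13* and 0.917 for *Abhd5*, but 0.986 for *Cideb* and 0.991 for *Pnpla2*. Stellate cell markers, of cells that store retinyl esters in droplets, were positive in 5 of 9, with every KO library above the WT libraries for *Hgf* (ratio 1.43) and *Col14a1* (1.22) and below for *Ecm1* (0.823). Their limma adjusted p was 0.357 to 0.453, and *Lrat* overlapped between groups (ratio 1.17). The 3 singly named hepatoma and fetal liver markers tested were positive, with overlapping groups. Of the 2 rows named *Afp*, the first was at 0.620, 0.956 and 0.761 in WT and at 1.48, 1.30 and 1.24 in KO libraries, without overlap (ratio 1.72, limma adjusted p = 0.211), and the second overlapped (ratio 1.45). Of the skeletal muscle markers 2 were tested. *Tnni2* was listed at 0 in the WT libraries and is 1 of the 2 rows that passed over the whole table. Its WT spread was 0 (SD), and its log2 change depends on the 0.1 added to each value. *Mylpf* had a ratio of 0.527. The part of these cells in the droplet genes was not tested.

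**Figure D4:**
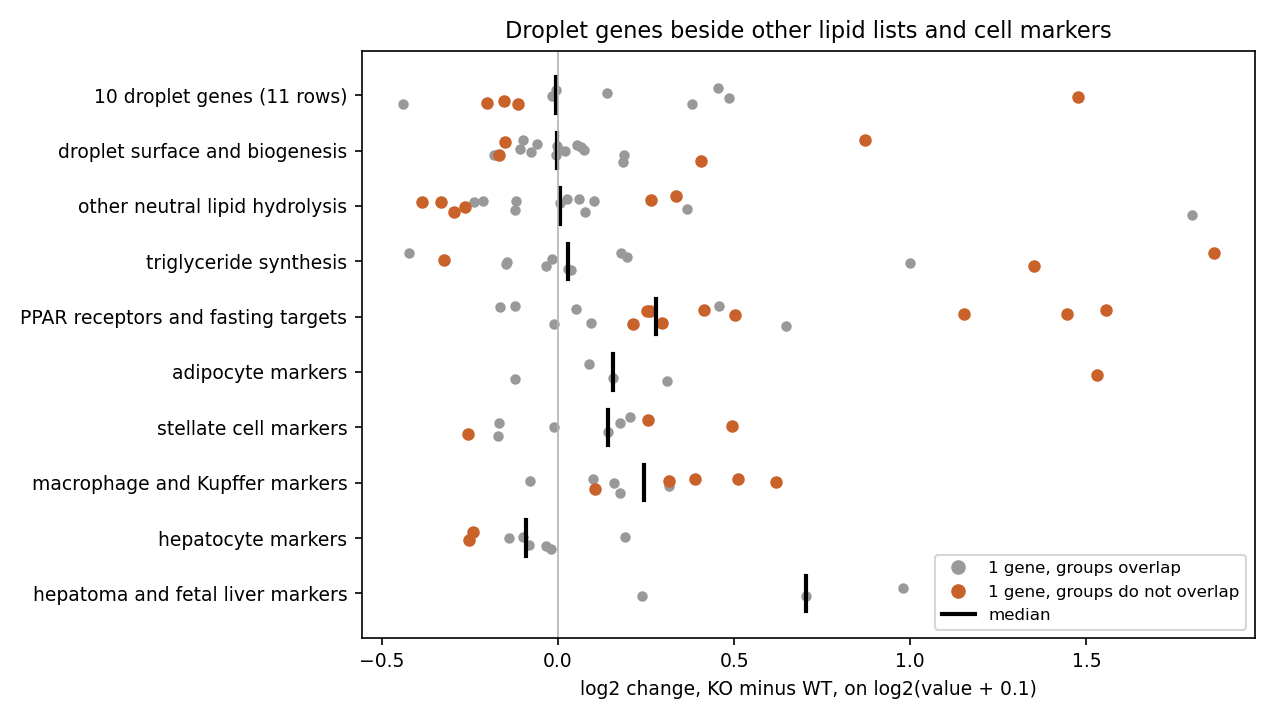
Log2 change, KO minus WT, of each gene in the droplet list, in other lipid lists and in cell marker lists; a point is 1 gene, orange where the groups do not overlap, and the black bar is the median of the list. The droplet genes lie on both sides of 0 with a median of -0.0052, and the PPAR list has a median of 0.28. The lists were chosen with earlier results of these data known.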

How the data were processed

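Liver RNA of 3 WT and 3 KO libraries was compared. The authors deposited a table of linear ratios, each row under a gene name; no value lies above 7, 0 rows sum to more than 7 beyond 1e-09 over the 6 libraries and 99 sum to 7 within it, from which the reading as a ratio to a mean of 7 libraries was taken. STAR 2.10, R 4.0.5 and mm10 are named, per the submitters' processing notes, with no role; the counter, the annotation, the library scaling and the depth are, in the sources used here, not stated. Of 12792 rows 189 had no value. The 12578 rows above 0 in at least 3 libraries were fitted in R 4.3.3 by limma 3.58.1, with no trend of the spread on the mean, on log2(value + 0.1), which understates changes of low values, with Benjamini-Hochberg adjustment over all rows, two-sided, 4 residual degrees of freedom. Folds are ratios of group means. Exact permutation tests used scipy 1.17.1. Gene positions are from GENCODE M21 (mm10) and promoters from RefSeq on the same build. Named genes were the 10 genes, *Akr1d1*, the 3 smallest p of each list with 12 set names, and the 3 genes nearest to *Plin2*; names in 2 or more rows (110 names) were left out of lists other than the 10 genes. Members and lists were chosen with earlier results of these data known. Some of the genes named by this rule are left out, *Timd4*, *Mpeg1* and *Ehhadh* among them.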

Additional observations from a re-analysis of the deposited data

How the results depend on the processing

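The number of rows past the threshold over the whole table was 2, and became 1 with a pseudocount of 1, 1 with the replicate block, 0 with a mean trend and 0 with only rows above 0 in all 6 libraries; leaving out each library in turn gave 1 to 4, with 1 without WT replicate 2 or KO replicate 1 and 4 without WT replicate 3 or KO replicate 2. *Tnni2*, 1 of the 2 rows, was at 0 in the WT libraries and so is not among the rows above 0 in all 6 libraries. The cause of the changes in number was not tested further. Of the 11 droplet gene rows 0 passed under every setting. Their smallest limma adjusted p was 0.136, with a mean trend, and 1 to 3 had an unadjusted p under 0.05. The median change of the 11 rows stayed within the spread between libraries (SD 0.114), at -0.05 to 0.07 over the left-out libraries, and at 0.07 and -0.01 without the first or the second *Cidec* row, an alternative chosen after seeing the data. Of 143 alternative values of single rows, 136 kept their sign and their side of the threshold and 7 changed sign. *Pnpla2* was at 0.00095 with libraries shifted to a common median, and at -0.11 to 0.071 over the left-out libraries, and *Cideb* at -0.060 to 0.051. The second *Cidec* row ran from 0.78, with a pseudocount of 1, to 1.65, and *Akr1d1* kept its sign and missed the threshold throughout. Same-numbered libraries did not deviate together (r across genes -0.0207, -0.00198 and 0.089), so the replicate numbers were not taken as pairs. The unknown depth limits what can be said of each value.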

Other observations

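Some further genes known to respond to feeding or fasting varied between libraries of a group; they were named after their values were seen and are not a fixed list. WT replicate 1, the lowest library for *Plin2*, *Plin4* and *G0s2*, had the highest *Pnpla3* (2.94) and the highest *Thrsp* (1.78, against 0.687 to 1.44 in the other libraries), both known to rise with lipid synthesis. The same library had the lowest *Fgf21*, a fasting hormone of the liver (0.0905, against 0.287 to 2.03), and the lowest *Pdk4*, a kinase that spares glucose in fasting (0.267, against 0.442 to 2.26). *Pdk4* was highest in KO replicate 1 (2.26), which was also the highest library for *Plin2* and *G0s2*, while *Fgf21* was at 2.03 there. Other genes known to rise in fasting ran differently: *Lpin1* was highest in WT replicate 1 (1.99) and lowest in KO replicate 1 (0.628), and *Ppargc1a* was at 1.17 in WT replicate 1 and lowest in KO replicate 1 (0.585). The labels give no feeding state or time of day.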
